A study of Mus musculus with 26 samples.

Results

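The 10 genes described here mark GABAergic interneurons, the inhibitory neurons of the cortex: Gad1, Gad2, Dlx1, Dlx2, Dlx5, Lhx6, Sox6, Nxph1, Sst and Erbb4. They were chosen by name and matched by symbol, 10 of the 30406 genes that the 8 cortex libraries share, and all 10 passed the filter on low counts in every comparison. They were followed in 43456 nuclei with at least 500 UMIs (unique molecular identifiers, each standing for a captured RNA molecule) and 200 genes. The nuclei came from the prospective somatosensory cortex of male C57Bl/6N mouse embryos at E15.5, and every dam had been injected at E12.5. The 4 groups were wild type after saline, wild type after Poly(I:C), Csf1r-null after saline and Csf1r-null after Poly(I:C), with 2 libraries in each. Poly(I:C) is a synthetic double-stranded RNA that stands in for a viral infection and sets off maternal immune activation (MIA), and the Csf1r-null embryos lack the receptor that microglia need to survive, in every cell and from conception. A library held the sorted nuclei of 1 or 2 embryos, so p-values measure the spread between such libraries. Poly(I:C) or saline was given to the dam, the wild-type embryos were littermates of the Csf1r-null ones and the study used fewer dams than libraries, so libraries of the same treatment share litters and are not fully independent.

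Cortical interneurons are not born in the cortex. They arise from ventral progenitors in the ganglionic eminences, and at mid-gestation they migrate into the cortical wall along tangential routes. The homeodomain factors Dlx1, Dlx2 and Dlx5 act in all ganglionic eminences and their neurons, including future striatal neurons, while Gad1 and Gad2 encode the enzymes that make GABA. Lhx6 and Sox6 are transcription factors that set the fate of interneurons from the medial ganglionic eminence (MGE), Sst encodes the peptide somatostatin that part of them release, Nxph1 a secreted neurexin ligand, and Erbb4 the neuregulin receptor of migrating interneurons. Interneurons of the caudal ganglionic eminence (CGE) share the Dlx and Gad genes but lack Lhx6.

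All 10 genes are protein coding in the mouse annotation of the files' build, GRCm38 (mm10). On chromosome 2 lie Gad1 (ENSMUSG00000070880, chr2:70553072-70602014, plus strand), Gad2 (ENSMUSG00000026787, chr2:22622205-22693874, plus strand), Dlx1 (ENSMUSG00000041911, chr2:71528113-71533981, plus strand), Dlx2 (ENSMUSG00000023391, chr2:71543408-71546754, minus strand) and Lhx6 (ENSMUSG00000026890, chr2:36081953-36105408, minus strand). On chromosome 6 lie Dlx5 (ENSMUSG00000029755, chr6:6877805-6882085, minus strand) and Nxph1 (ENSMUSG00000046178, chr6:8948431-9249032, plus strand). The remaining 3 are Sox6 (ENSMUSG00000051910, chr7:115470872-116038796, minus strand), Sst (ENSMUSG00000004366, chr16:23889573-23890958, minus strand) and Erbb4 (ENSMUSG00000062209, chr1:68032186-69108059, minus strand). Dlx1 and Dlx2 face each other with 9.43 kb between their ends. RefSeq promoter windows of 250 bases before to 50 after a gene's start (GRCm38.p6) were at hand for 9 of the 10 genes, 16 windows in all, and not for Dlx5. The windows of the Dlx1 and Dlx2 pair, whose levels were both highest in wild-type saline replicate 1, and of Sst, whose level there equalled that of replicate 2, are shown 5′ to 3′ on the strand of the gene, with the cAMP response element (TGACGTCA) in capitals. They lie at chr2:71529195-71529494 (plus strand), chr2:71546705-71547004 (minus strand) and chr16:23890795-23891094 (minus strand). The RefSeq starts of the windows can differ from the gene ends given above. The Dlx1 window lies inside the Dlx1 gene as given, and the RefSeq start of the Sst window also lies inside the Sst gene as given.
Dlx1: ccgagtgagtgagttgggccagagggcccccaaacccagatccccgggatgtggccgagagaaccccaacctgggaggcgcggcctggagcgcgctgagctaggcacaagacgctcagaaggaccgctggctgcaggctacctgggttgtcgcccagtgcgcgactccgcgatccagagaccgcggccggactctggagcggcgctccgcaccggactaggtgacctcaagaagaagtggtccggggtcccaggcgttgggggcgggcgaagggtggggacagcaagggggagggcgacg
Dlx2: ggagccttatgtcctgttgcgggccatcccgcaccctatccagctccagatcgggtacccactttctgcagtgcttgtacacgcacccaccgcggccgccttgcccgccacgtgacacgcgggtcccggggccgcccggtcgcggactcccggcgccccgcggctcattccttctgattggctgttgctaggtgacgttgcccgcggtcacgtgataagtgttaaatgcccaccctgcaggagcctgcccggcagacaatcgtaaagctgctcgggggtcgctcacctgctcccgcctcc
Sst: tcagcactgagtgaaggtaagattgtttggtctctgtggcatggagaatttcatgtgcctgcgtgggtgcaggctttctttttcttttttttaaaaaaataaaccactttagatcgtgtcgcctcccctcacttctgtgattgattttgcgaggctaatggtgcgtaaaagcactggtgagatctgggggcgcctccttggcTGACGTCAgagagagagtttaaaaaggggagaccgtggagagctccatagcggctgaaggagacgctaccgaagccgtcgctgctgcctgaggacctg
Of 2 motifs searched on both strands, TGACGTCA stood in 1 of the 16 windows, that of Sst, with its first base 48 bases before the RefSeq start, and in 1.79% of all 32851 promoter windows. The homeodomain core TAATTA, which does not overlap the other motif, stood in none of the 16 windows and in 5.29% of all windows. G and C made up 69.3% of the Dlx1 window, 66.3% of the Dlx2 window and 50.3% of the Sst window, against a median of 52.7% over all windows.

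Several facts of the libraries touch every value below. The UMIs in nuclei ranged from 9897721 to 17605575 a library and the median nucleus held between 1469 and 2953.5. Replicate 1 of each group was counted with another version of Cell Ranger than replicate 2. Wild-type saline replicate 1 was rich in ventral cells: the summed level of 11 striatal and lateral eminence genes was 912 CPM (a gene's UMIs scaled to the same total in every library) there and 25.5 to 55.0 CPM in the other 7 libraries. Ebf1 alone stood at 708 CPM there and at 5.54 to 30.8 CPM in the other libraries. Microglial genes went against 2 labels. Csf1r had 23, 11, 23 and 1 UMIs in the 4 wild-type libraries and 4, 10, 2 and 1 in the 4 Csf1r-null libraries, and 12 other microglial genes summed to 294 to 510 UMIs in 3 wild-type libraries, 48 in replicate 2 labelled wild-type MIA, and 208 in replicate 2 labelled Csf1r-null saline against 64 to 98 in the other Csf1r-null libraries. The complement genes C1qa and C1qb were at 0 in the former and at 1.95 and 2.57 CPM in the latter. The main results are therefore given also without wild-type saline replicate 1, and the member fits over all nuclei and the shares also without these 2 libraries. Between any 2 libraries, 0 to 14 nuclei shared a barcode.

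The 5 genes that all GABAergic neurons share stood far higher in wild-type saline replicate 1 than in any other library, and in those 7 they lay close together. Gad1 was at 45.1 and 10.5 CPM in the wild-type saline libraries (replicates 1 and 2), at 14.8 and 8.76 after MIA, at 11.1 and 13.7 in the Csf1r-null saline libraries and at 14.9 and 7.67 in the Csf1r-null MIA libraries. Gad2 was at 168 and 25.1 CPM, 34.6 and 21.9, 27.8 and 32.4, and 31.6 and 24.4 in the same order. For both enzymes wild-type saline replicate 1 was the highest library by far. In the other 7, saline and MIA values were interleaved. All nuclei were summed here, so these values alone do not tell the number of interneurons from the RNA in each. GABAergic-like nuclei, described below, were 29.1% of wild-type saline replicate 1. Within them Gad2 was at 1.18 and Gad1 at 0.706 times the median of the other 7 libraries.

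The Dlx genes had the same shape. Dlx1 was at 165 and 19.1 CPM in wild-type saline, 24.9 and 17.2 in wild-type MIA, 22.9 and 25.8 in Csf1r-null saline and 20.4 and 19.9 in Csf1r-null MIA. Dlx2 was at 94.1 and 15.8, 16.4 and 15.0, 10.9 and 18.6, and 11.8 and 14.9 CPM, and Dlx5 at 63.7 and 10.5, 11.5 and 8.03, 6.89 and 10.7, and 8.18 and 9.77 CPM. The level in wild-type saline replicate 1 was 8.10 times the median of the other 7 libraries for Dlx1, 6.29 times for Dlx2, 6.53 times for Dlx5, 6.03 times for Gad2 and 4.07 times for Gad1. For all 5 of these genes, wild-type saline replicate 2 lay between the wild-type MIA libraries.

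The genes of MGE interneurons did not share that shape. Lhx6 was at 36.6 and 20.4 CPM in wild-type saline, 31.3 and 16.2 in wild-type MIA, 23.6 and 20.5 in Csf1r-null saline and 29.0 and 19.8 in Csf1r-null MIA, so that replicate 1 was the higher in each group. Sox6 was at 87.3 and 64.9, 101 and 109, 80.0 and 92.2, and 93.0 and 86.5 CPM. Its wild-type MIA libraries were both above its wild-type saline libraries, while the Csf1r-null groups overlapped. The cortical progenitors, which also express Sox6, had the same order in wild type: apical progenitor-like nuclei were 10.4% and 10.8% of the saline libraries and 12.4% and 13.8% of the MIA libraries, and intermediate progenitor-like nuclei 7.69% and 7.95% against 9.94% and 13.1%. Their part in the Sox6 level was not tested. Nxph1 was at 38.8 and 26.5, 40.4 and 28.7, 30.9 and 35.2, and 33.7 and 31.5 CPM, with all groups overlapping.

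Sst had an order of its own. It was at 44.8 and 44.8 CPM in the wild-type saline libraries, 43.1 and 22.7 in wild-type MIA, 20.7 and 24.9 in Csf1r-null saline, and 17.2 and 38.3 in Csf1r-null MIA. The wild-type saline libraries were level with each other, including the ventral-rich one, and both lay above the Csf1r-null saline libraries, while the spread within each MIA group reached about the size of that gap. The Sst reads came from few nuclei: 171 nuclei with at least 5 Sst UMIs held 57.4% of the Sst UMIs left after doublet removal. In wild-type saline replicate 1, 26 such nuclei held 71.9% of them, and in Csf1r-null MIA replicate 1, 8 such nuclei held 29.6%. Erbb4 was at 52.1 and 20.8 CPM in wild-type saline, 34.6 and 25.5 in wild-type MIA, 27.8 and 30.3 in Csf1r-null saline, and 32.0 and 19.7 in Csf1r-null MIA, with wild-type saline replicate 1 the highest and the other libraries overlapping.

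**Figure D1:**
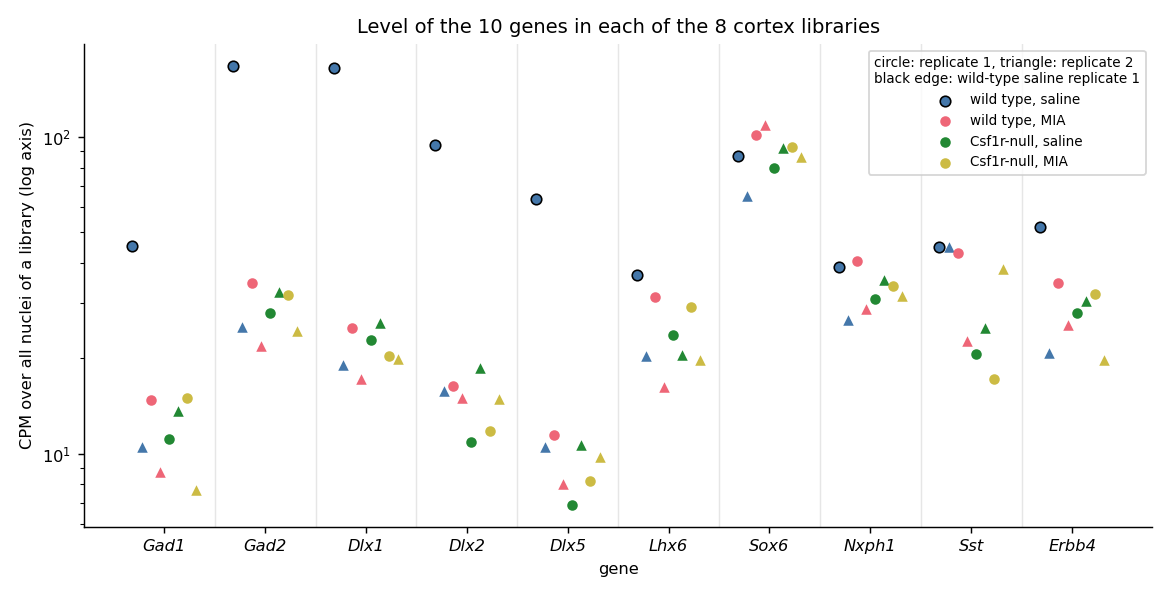
Level of each gene in each library, in CPM over all nuclei on a log axis, with 1 point per library coloured by group. The black-edged point, wild-type saline replicate 1, is far above the other 7 libraries for Gad1, Gad2, Dlx1, Dlx2 and Dlx5 (for Dlx1 at 165 CPM against at most 25.8) and lies among them for Sox6, Nxph1 and Sst.

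Whether the 10 genes changed after MIA in wild type was tested with edgeR's quasi-likelihood test on the UMIs of all nuclei summed per library, 2 libraries against 2, with the spread shared over all 4 groups and p-values adjusted over 14509 genes by Benjamini-Hochberg. No gene passed an adjusted p of 0.05, members included (0 of 10 members, against 0% of all genes). DESeq2 called 4 of the 14509 genes and 0 of 10 members. At an unadjusted p under 0.05 there were 5 of 10 members (Gad2, Dlx1, Dlx2, Dlx5 and Sox6), against 5.53% of all genes. The log2 fold change of MIA over saline was -2.13 ± 0.73 (SE) for Dlx1 (interval at 95% from -3.81 to -0.44), -1.93 ± 0.66 for Dlx5, -1.81 ± 0.65 for Dlx2, -1.77 ± 0.65 for Gad2 and -1.25 ± 0.56 for Gad1, each with an edgeR adjusted p of 0.891. The median over the 10 members was -0.89 and that over all genes tested 0.01.

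Those differences rested on wild-type saline replicate 1. Without it, the log2 fold change was -0.05 for Dlx1, -0.29 for Dlx5, -0.20 for Dlx2, -0.01 for Gad2 and -0.02 for Gad1, and the median over the 10 members was -0.02. Without wild-type saline replicate 2 in its place, Dlx1 alone of the members passed (log2 fold change -2.94, edgeR adjusted p = 0.0339), against 0.0133% of all genes. In these fits the remaining wild-type saline library was assumed to vary like the other groups. With no filter on low counts, 5 of 10 members passed in the 8 libraries (Gad1, Gad2, Dlx1, Dlx2 and Dlx5), against 0.265% of all genes. Leaving out both libraries that went against their labels, so that the remaining wild-type MIA library stood for its group, gave -1.92 for Dlx1 and -1.51 for Gad2.

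The other 5 genes were nearer to 0 in wild type. The log2 fold change was 0.40 ± 0.16 for Sox6 (edgeR adjusted p = 0.891), 0.02 ± 0.20 for Nxph1, -0.31 ± 0.32 for Lhx6, -0.31 ± 0.35 for Erbb4 and -0.53 ± 0.42 for Sst. Without wild-type saline replicate 1, Sox6 was at 0.51 and Sst at -0.63. Erbb4 was at 0.35, Lhx6 at 0.04 and Nxph1 at 0.20, so that Erbb4 and Lhx6 changed sign.

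In Csf1r-null embryos the same comparison had 0 of 10 members past an adjusted p of 0.05 (0% of all genes) and 0 of 10 at an unadjusted p under 0.05 (0.241% of all genes). The log2 fold changes lay between -0.27 (Dlx1, 0.72 SE) and 0.31 (Sst, 0.43 SE), with a median of -0.07. The spread between libraries left room for larger ones: the 95% interval of Dlx1 ran from -1.94 to 1.40 and that of Sox6, the narrowest of the 10, from -0.31 to 0.42. The Csf1r-null group after saline includes the library that went against its label, and without both such libraries Dlx1 was at -0.14 and Sst at 0.49.

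**Figure D2:**
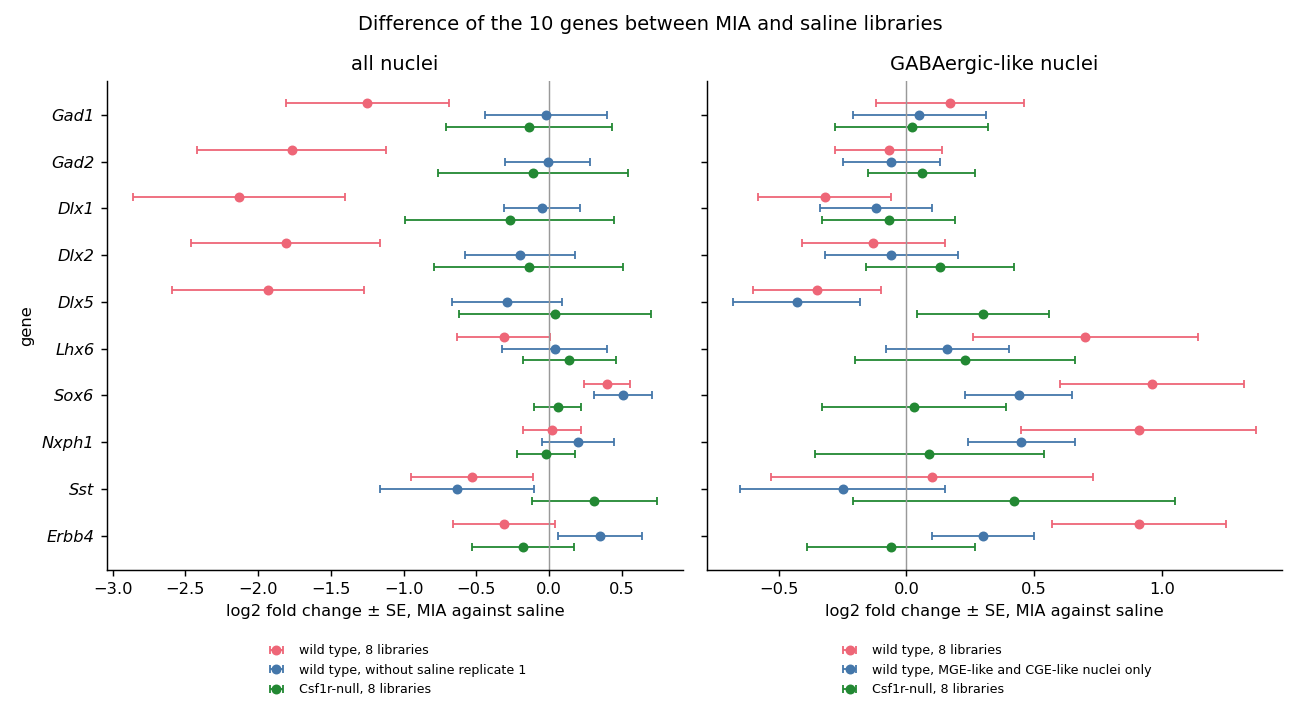
Log2 fold change of MIA over saline for each gene, with the standard error as bars, in all nuclei (left) and in GABAergic-like nuclei (right). In all nuclei of wild type Gad1, Gad2 and the Dlx genes lie at -1.25 to -2.13 with 8 libraries in the fit and at -0.29 to -0.01 without saline replicate 1, and in GABAergic-like nuclei of wild type Sox6, Nxph1 and Erbb4 lie at 0.91 to 0.96 and, with the MGE-like and CGE-like nuclei alone, at 0.30 to 0.45.

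The difference of the MIA response between the genotypes was tested as an interaction term. It passed for 0 of 10 members (0% of all genes), and 0 of 10 were at an unadjusted p under 0.05 (1.67% of all genes). The term was 1.97 ± 0.93 for Dlx5, 1.86 ± 1.02 for Dlx1, 1.67 ± 0.91 for Dlx2, 1.66 ± 0.91 for Gad2 and 1.11 ± 0.80 for Gad1 on the log2 scale. Without wild-type saline replicate 1 these were 0.33, -0.22, 0.06, -0.10 and -0.13, and without both libraries that went against their labels 2.15, 1.77, 2.11 and 1.55, with Gad1 at 1.0.

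Between genotypes after saline, 0 of 10 members passed (0% of all genes), and 5 of 10 were at an unadjusted p under 0.05 (Gad2, Dlx1, Dlx2, Dlx5 and Sst, against 5.67% of all genes). This comparison shares the wild-type saline libraries with the one of MIA in wild type. Dlx5 was at -2.03 ± 0.66 and Gad2 at -1.62 ± 0.65 (Csf1r-null over wild type, log2), and at -0.38 and 0.14 without wild-type saline replicate 1. Sst had a 95% interval of -1.98 to -0.01 (edgeR adjusted p = 0.849) and was at -1.10 without that library. Without both libraries that went against their labels, so that the remaining Csf1r-null saline library stood for its group, Dlx5 was at -2.43, Gad2 at -1.79 and Sst at -1.18. With no filter on low counts 5 of 10 members passed (0.27% of all genes), Sst among them, and without wild-type saline replicate 2 Dlx1 passed (0.0199% of all genes). After MIA the genotypes differed by -0.17 to 0.09, with 0 of 10 members past the adjusted threshold (0% of all genes) and 0 of 10 at an unadjusted p under 0.05 (0.414% of all genes). The median over the members was -0.04 with all 8 libraries. It was -0.27 without replicate 2 labelled wild-type MIA (-0.01 over all genes), 0.24 without the other wild-type MIA library (0.02 over all genes) and -0.26 without both libraries that went against their labels. The sign of this median thus depended on which wild-type MIA library was kept.

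The nuclei were then clustered, with the 10 genes kept out of the clustering and of the naming, and 3299 of the 41539 nuclei left after doublet removal fell in GABAergic-like clusters, named from other genes of these neurons such as Dlx6os1 and Sp9. Levels by class are descriptions, since cells were grouped by expression. Most UMIs of each gene except Sox6 lay in this class, which held 97.4% of the Erbb4 UMIs, 97.3% of Gad1, 96.0% of Nxph1, 95.8% of Gad2, 95.5% of Lhx6, 93.1% of Dlx1, 92.0% of Dlx2, 88.3% of Dlx5 and 86.4% of Sst. These shares pool the libraries, and wild-type saline replicate 1 held 760 of the 1523 Dlx5 UMIs. By library the Dlx5 share ranged from 72.7% (wild-type MIA replicate 2) to 91.3% (wild-type saline replicate 1). Gad1 ranged from 169 to 326 CPM over the 8 libraries in GABAergic-like nuclei and from 0 to 1.70 CPM in excitatory neuron-like nuclei. Sox6 had a second site of expression. It was at 280 to 433 CPM in apical progenitor-like nuclei and at 275 to 357 CPM in intermediate progenitor-like nuclei, classes that held 38.2% and 27.0% of its UMIs, against 19.9% in GABAergic-like nuclei.

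Free RNA bears on low levels. In the replicate 1 libraries, barcodes with fewer than 100 UMIs, which hold mostly free RNA, had Sst at 54.6 to 119 CPM, above the level in nuclei (17.2 to 44.8 CPM). Dlx1 was at 68.2 CPM in these barcodes of wild-type saline replicate 1 and at 22.8 to 23.7 CPM in the other 3, and Gad2 at 67.6 and 22.2 to 31.8 CPM. In excitatory neuron-like nuclei, which are not known to use these genes, 1.08% had a UMI of Sst, 0.376% of Gad2 and 0.498% of Dlx1, at a median of 2186.5 UMIs a nucleus. Libraries are pooled in these shares, and wild-type saline replicate 1 gave 1315 of the 3299 GABAergic-like nuclei. In its excitatory neuron-like nuclei Gad2 was at 6.81 CPM, against 0.626 to 2.39 CPM in the other libraries. In GABAergic-like nuclei, at a median of 1851 UMIs, the shares for Sst, Gad2 and Dlx1 were 19.4%, 59.0% and 46.1%. Thinned to 1000 UMIs a nucleus, which kept 2876 of the 3299 GABAergic-like and 26917 of the 29516 excitatory neuron-like nuclei, those of Gad2 and Dlx1 were 43.7% and 33.0%, against 0.145% and 0.193% in excitatory neuron-like nuclei.

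The GABAergic-like nuclei divided into 9 sub-clusters, again with the 10 genes left out. Of these, 4 were MGE-like (2264 nuclei, with Npy and Nxph2 among the leading genes of each) and 1 was CGE-like (148 nuclei, Adarb2, Sp8 and Nr2f2). A further 2 were striatal-like (449 nuclei, with Ebf1, Isl1, Six3 and Zfp503 leading in 1 or both). The last 2 scored highest on the list of apical progenitor genes (mean log2 over the median 1.30 and 2.78), and are left unnamed here and given by number. Sub-cluster 5 (239 nuclei) was led by Ccnd2, Zfhx3 and Six3, and sub-cluster 6 (199 nuclei) by the division genes Top2a and Mki67. In the MGE-like nuclei all 10 genes were expressed, with Lhx6 at 391 to 643 CPM and Nxph1 at 492 to 766 CPM over the 8 libraries. In the CGE-like nuclei Lhx6 had 0 UMIs in 148 nuclei and 307101 UMIs, which allows a level of up to 9.77 CPM (3 counts, counting error only), Nxph1 had 2 UMIs and Sst 3, while Erbb4 was at 537 CPM and Dlx1 at 873 CPM.

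The striatal-like and unnamed sub-clusters came almost wholly from wild-type saline replicate 1, which gave 441 of 449 striatal-like nuclei, 223 of 239 in sub-cluster 5 and 192 of 199 in sub-cluster 6, so the levels given next are those of that library. Replicate 2 labelled Csf1r-null saline gave 7, 16 and 7 of the others. Dividing nuclei of sub-cluster 6 had Dlx1 at 1657 CPM (exact Poisson interval 1546 to 1774, counting error only), Dlx2 at 816 CPM and Gad1 at 72.2 CPM. Sub-cluster 5 had Dlx1 at 1083 CPM and Gad2 at 895 CPM. The striatal-like nuclei had Gad2 at 744 CPM and Dlx5 at 192 CPM, with Dlx1 at 98.4 CPM and Dlx2 at 65.9 CPM, below every MGE-like library. In all 3, Lhx6 lay between 0 and 4.01 CPM, Nxph1 between 2.01 and 9.13 CPM and Erbb4 between 2.01 and 50.1 CPM.

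**Figure D3:**
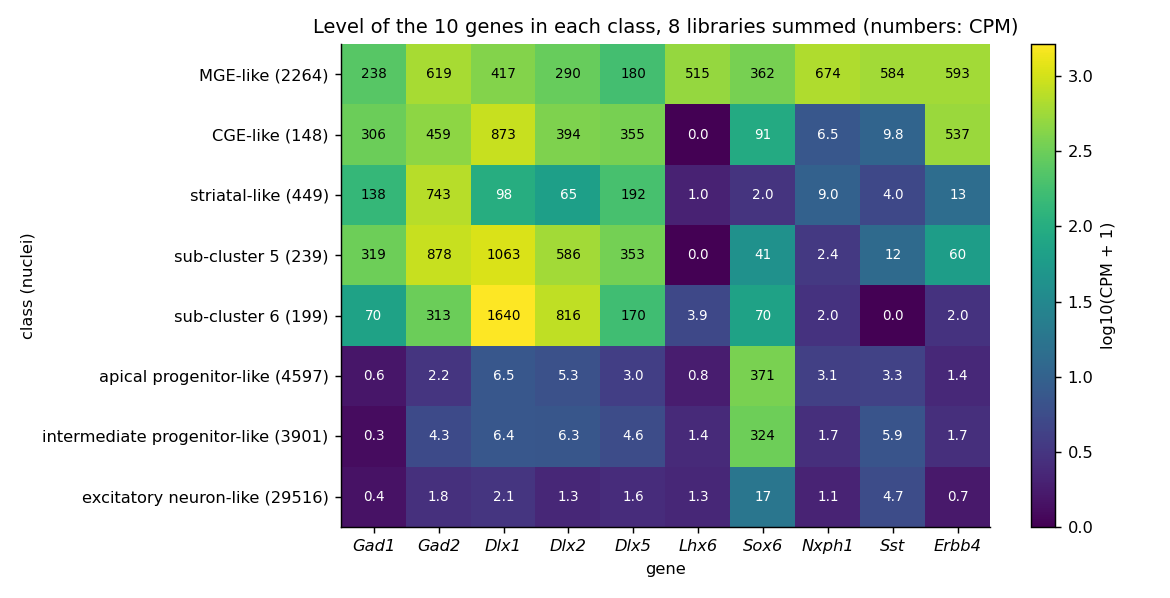
Level of each gene in CPM for each class, with the 8 libraries summed, printed in the cells and coloured by log10(CPM + 1). Lhx6, Nxph1 and Sst stand out in the MGE-like row alone, the Dlx and Gad genes in all 5 GABAergic rows, and Sox6 also in the apical progenitor-like (371 CPM) and intermediate progenitor-like (324 CPM) rows.

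GABAergic-like nuclei made up 29.1% of wild-type saline replicate 1 (exact binomial interval 27.8% to 30.5%) and 5.31% of replicate 2. They were 6.36% and 4.21% of the wild-type MIA libraries, 4.37% and 6.68% of the Csf1r-null saline libraries and 5.52% and 4.97% of the Csf1r-null MIA libraries. One library stood apart and the other 7 spanned 4.21% to 6.68%, with saline and MIA interleaved. MIA libraries had 5.27% ± 0.906 (SD, n = 4) and saline libraries 11.4% ± 11.9 (SD, n = 4), a difference of -6.11 percentage points (two-sided exact permutation test within genotype, p = 0.444, where 36 arrangements allow 0.0556 at the least). Without wild-type saline replicate 1 the difference was -0.189 percentage points (exact permutation p = 0.833). Between Csf1r-null and wild type it was -5.87 percentage points (exact permutation p = 0.5) and 0.0909 without that library (exact permutation p = 1). Without both libraries that went against their labels, the difference was -7.32 for MIA (exact permutation p = 0.889). For genotype it was -8.65 (exact permutation p = 0.222), each over 9 arrangements. With libraries left out, these plain differences of means are over unbalanced groups, so treatment and genotype are mixed in them. Over all 8 libraries, MGE-like and CGE-like nuclei alone gave -1.84 percentage points for MIA and -1.85 for genotype (exact permutation p = 0.5 in each). Leaving out the striatal-like nuclei alone gave -4.16 and -3.98 (exact permutation p = 0.5 in each). Wild-type saline replicate 1 also held more MGE-like nuclei, 8.88% against 3.91% to 6.22% in the other 7 libraries. CGE-like nuclei were 1.28% there against 0.138% to 0.388%. Whether these nuclei lay in the cortex or came with ventral tissue was not tested.

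**Figure D4:**
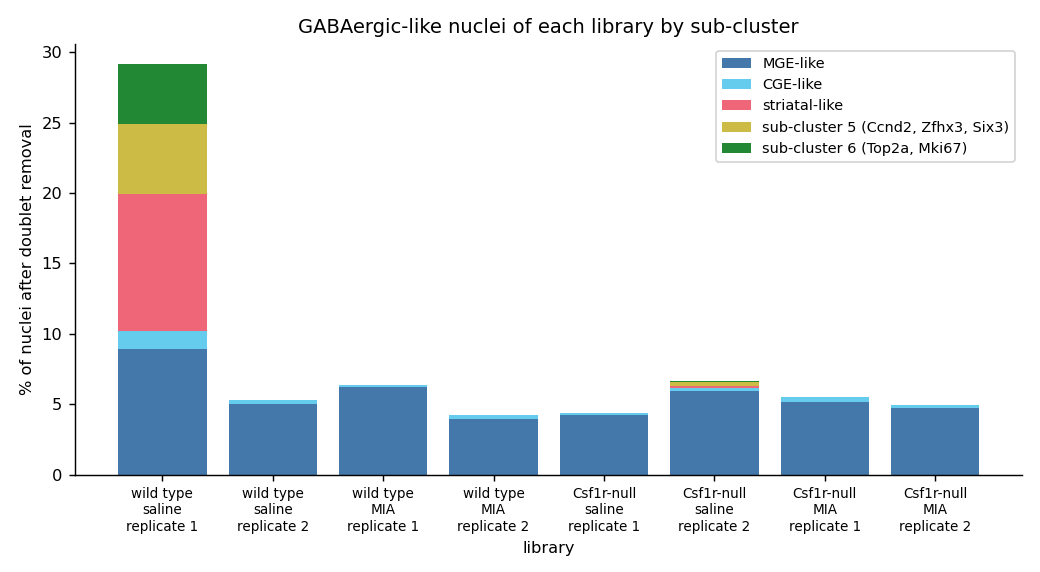
GABAergic-like nuclei as a percentage of the nuclei of each library after doublet removal, divided by sub-cluster, with 1 bar per library. Wild-type saline replicate 1 reaches 29.1% with 3 parts that the other bars all but lack, and the other 7 bars end between 4.21% and 6.68%.

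Summing UMIs within GABAergic-like nuclei takes the share of the class out of the comparison, but not the mix of sub-clusters in it. In wild-type saline replicate 1, 441 of 1315 such nuclei were striatal-like, and 223 and 192 lay in sub-clusters 5 and 6. Over the whole class this library moved to the low end for the MGE genes. In this class Lhx6 was at 144 and 451 CPM in the wild-type saline libraries, 589 and 381 in wild-type MIA, 549 and 345 in Csf1r-null saline and 604 and 446 in Csf1r-null MIA. Nxph1 was at 155 and 603, 752 and 682, 714 and 584, and 693 and 687 CPM, and Erbb4 at 208 and 468, 654 and 634, 662 and 523, and 682 and 457 CPM. Wild-type saline replicate 1 was now the lowest of the 8 for these 3 genes, for Sox6 (116 CPM against 287 to 440) and for Sst (166 CPM against 290 to 910). For Dlx1 it was the highest, at 644 CPM against 385 to 525. With the MGE-like and CGE-like nuclei alone, this library lay within the range of the others for Lhx6 (404 CPM), Erbb4 (553 CPM), Sst (459 CPM) and Dlx1 (507 CPM). It was still the lowest there for Sox6 (275 CPM against 287 to 440) and Nxph1 (425 CPM against 603 to 752).

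Within GABAergic-like nuclei, 8322 genes were tested and 0 of 10 members passed in wild type after MIA (0% of all genes), with 2 of 10 at an unadjusted p under 0.05 (Sox6 and Erbb4, against 10.4% of all genes). The log2 fold change was 0.96 ± 0.36 for Sox6, 0.91 ± 0.34 for Erbb4 (edgeR adjusted p = 0.412 and 0.406), 0.91 ± 0.46 for Nxph1 and 0.70 ± 0.44 for Lhx6. With the MGE-like and CGE-like nuclei alone these fell in size to 0.44, 0.30, 0.45 and 0.16, and without wild-type saline replicate 1 in the whole class they were 0.37, 0.39, 0.18 and 0.04. The MGE-like nuclei themselves lay in different sub-clusters by library, so the mix of sub-clusters differed within this class too. Sub-clusters 0, 1, 2 and 3 had a median of 1151, 2189, 1878 and 2344 UMIs a nucleus, and the libraries were not aligned before clustering. Whether this split follows kinds of cells, depth or replicate number was not tested. Sub-cluster 2 held 249 of 401 and 102 of 224 in wild-type saline and 62 of 360 and 33 of 199 in wild-type MIA. In Csf1r-null it held 32 of 240 and 17 of 335 after saline and 15 of 225 and 36 of 280 after MIA. Sub-cluster 3 was larger in replicate 1 of each group (69 and 18, 126 and 41, 75 and 22, 115 and 28). Sub-cluster 0 was larger in replicate 2 (34 and 43, 54 and 61, 52 and 232, 9 and 160). Sub-cluster 1 was mixed (49 and 61, 118 and 64, 81 and 64, 86 and 56). Gad1, Gad2, Dlx1, Dlx2 and Dlx5 lay between -0.35 and 0.17. Sst changed sign, from 0.10 ± 0.63 in the class to -0.25 with the MGE-like and CGE-like nuclei alone and -0.70 without wild-type saline replicate 1. Without wild-type saline replicate 2, so that the ventral-rich library stood alone for its group, 5 of 10 members passed (Lhx6, Sox6, Nxph1, Sst and Erbb4, all higher after MIA, against 3.98% of all genes), and with no filter on low counts 3 of 10 passed (Sox6, Nxph1 and Erbb4, against 1.65% of all genes).

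In the other comparisons within the class no member passed with all 8 libraries. In Csf1r-null embryos after MIA 0 of 10 passed (0% of all genes) and 0 of 10 were at an unadjusted p under 0.05 (1.29% of all genes), with log2 fold changes from -0.07 (Dlx1) to 0.42 (Sst). For the difference of the response between genotypes 0 of 10 passed (0%) and 0 of 10 were at an unadjusted p under 0.05 (4.17% of all genes), with Erbb4 at -0.98 ± 0.47. Between genotypes after saline 0 of 10 passed (0%) and 1 of 10, Erbb4, was at an unadjusted p under 0.05 (9.34% of all genes), at 0.82 ± 0.34 and, with the MGE-like and CGE-like nuclei alone, at 0.25. With the replicate block, 4 of 10 members and 1135 of 8322 genes were at an unadjusted p under 0.05 there, and with library totals in place of TMM scaling 3 of 10 members and 770 genes, and 0 of 10 members passed in either. After MIA 0 of 10 passed (0%) and 0 of 10 were at an unadjusted p under 0.05 (1.24% of all genes). Without wild-type saline replicate 2, 3 of 10 members passed for the difference of the response (0.635% of all genes) and 4 of 10 between genotypes after saline (3.24% of all genes).

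The mix of members restates the same counts without a model. Gad1, Gad2, Dlx1, Dlx2 and Dlx5 made up 67.4% of the UMIs of the 10 genes over all nuclei of wild-type saline replicate 1 and 25.9% to 33.2% in the other 7 libraries. There were 0.222 Lhx6 UMIs for each Dlx1 UMI in wild-type saline replicate 1 and 0.797 to 1.42 in the others. Within MGE-like and CGE-like nuclei the share of the 5 genes was 47.8% in wild-type saline replicate 1 and 36.8% to 40.6% in the others, so this library remained the highest there too. With the striatal-like and unnamed sub-clusters taken out of all nuclei, the log2 fold changes of MIA in wild type were still -1.11 for Dlx1, -1.29 for Dlx5 and -0.96 for Gad2. The larger MGE-like share and the higher free RNA of this library stand beside these values, and their part in them was not tested.

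Other genes of these cells were read by list, with edgeR and all nuclei. Of 7 other GABAergic genes, 0 passed after MIA in wild type and 6 were lower, with a median log2 fold change of -1.32, which was 0.23 without wild-type saline replicate 1. Dlx6os1, a noncoding RNA of the Dlx5 and Dlx6 locus, was at 299 CPM in that library and at 34.8 to 64.2 CPM in the others, and Sp9, a factor of ventral neurons, at 115 CPM against 11.1 to 16.0 CPM. Of 6 other MGE genes tested 0 passed, with a median of -0.08 (0.18 without that library). Their summed level, with 8 genes in the list, was 398 CPM there and 225 to 337 CPM in the others. Maf was at 142 CPM against at most 110 CPM and Npy at 80.3 against at most 47.1 CPM, while Satb1, an MGE interneuron factor, was at 107 CPM against 84.4 to 127 CPM. Of 10 migration genes tested 0 passed, with a median of 0.08 (0.07 without that library). Ncam1 and Dcx, which cortical excitatory neurons also use, ranged from 714 to 1020 and from 393 to 620 CPM. Of 6 CGE genes 0 passed (median -0.68, and 0.22 without that library), and of 5 striatal genes 0 passed (median -2.04, and -0.30 without it). Of 11 microglial genes tested 0 passed and 11 were lower (median -1.67, and -1.49 without wild-type saline replicate 1), where the 12 listed genes summed to 4.38 CPM in replicate 2 labelled wild-type MIA, which went against its label, 20.7 CPM in the other wild-type MIA library and 24.7 and 39.6 CPM in wild-type saline. Of 6 excitatory neuron genes 0 passed (median 0.11, and -0.14 without wild-type saline replicate 1).

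Among the genes whose levels ran most like the summed members over the 8 libraries, of 7580 with a mean of at least 20 CPM, were Sp9 (Pearson r = 0.989 on log2(CPM + 1)), Dlx6os1 (0.968), Sox1 (0.962), Tyms (0.960) and Slain1 (0.959). These 5 were higher in wild-type saline replicate 1 than the median of the others, Sp9 at 115 against 12.2 CPM and Tyms at 74.8 against 45.5 CPM. Over the 7 libraries without it, none of these 5 was among the nearest, which were Ppp1r21 (0.960), Dnmt1 (0.917), Armcx5 (0.912), Tox3 (0.911), Cacfd1 (0.910) and Dpp6 (0.90). These are descriptions over 8 or 7 libraries that share depth and replicate number, and in the first case they follow 1 library.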

How the data were processed

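Nuclei were sorted and sequenced with the 10x Chromium 3′ v3.1 chemistry. The deposited UMI count matrices hold whole numbers that the authors made with Cell Ranger on mm10, version 3.1.0 in replicate 1 and 6.0.1 in replicate 2 per the file headers, whereas the labels name 3.1.0 and the study's methods 6.0.1. Nothing was normalized in these deposited counts. Replicate 1 files list every barcode and replicate 2 files called barcodes alone. Here genes were joined by Ensembl ID (30406), nuclei with at least 500 UMIs and 200 genes were kept (4552 to 6198 a library), and for classes the top Scrublet scores were removed as doublets and nuclei clustered (scanpy 1.11.5, Leiden) without the 10 genes. UMIs were summed per library and tested with edgeR 4.0.16 (quasi-likelihood, TMM, filterByExpr, Benjamini-Hochberg), with DESeq2 1.42.0 as an alternative. The study's main test, a mixed model over nuclei within each cell type, was not run. The study also reports similar results from DESeq2 on summed counts, which here was run over all nuclei and over GABAergic-like nuclei alone. The 10 genes were named by choice, and they and the other lists were chosen with earlier results of these data known. Levels are UMI counts without length scaling, so they are compared within a gene. Poisson and binomial intervals cover counting error only, and those of the edgeR log2 fold changes carry the spread between libraries. The SE of an edgeR log2 fold change is its size divided by the square root of the test's F statistic. Its interval was built from that SE. Libraries with the same replicate number deviated together (correlations of deviations from group means 0.524 to 0.751), which paired them by replicate number and by Cell Ranger version. On simulated counts with 200 changed genes, the wild-type comparison in all nuclei recovered 23.5% of 2-fold and 81% of 4-fold changes, and in GABAergic-like nuclei 14% and 80.5%. The simulated libraries varied independently, with no outlying library and no effect of the replicate number. These recoveries therefore need not hold for genes that vary more between libraries, such as the Gad and Dlx genes. Some genes of the other lists and clusters are not reported here.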

Additional observations from a re-analysis of the deposited data

Results flagged for a closer look

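Among the 4 saline libraries, wild-type saline replicate 1 lay apart from the nearest of the others by more than Dixon's 95% critical value for 4 samples in 6 of the 22 sets of 4 libraries examined. Chance flags about 1 in 20 sets, but the 6 are 5 genes and the share of the same nuclei in 1 library, which was already known to be rich in ventral cells, so their number is a description and no test. The gap over the range was 0.909 for Gad1 (45.1 CPM over all nuclei), 0.949 for Gad2 (168 CPM), 0.954 for Dlx1 (165 CPM), 0.907 for Dlx2 (94.1 CPM) and 0.933 for Dlx5 (63.7 CPM). The share of GABAergic-like nuclei, at 29.1%, had a gap of 0.907 of the range.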

How the results depend on the processing

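Of the recomputed MIA log2 fold changes of the members within each genotype, 505 kept their direction and side of the threshold, 61 reversed and 14 newly passed. DESeq2 and the replicate block (paired libraries) called 0 of 10 members in all comparisons. Of 14509 genes in all nuclei, DESeq2 called 4 for MIA in wild type, 1 in Csf1r-null, 2 for their difference and 4 between genotypes after saline, and the replicate block 2 for the difference and 2 between genotypes after saline, with 1 of 8322 between genotypes after saline in GABAergic-like nuclei, and in the share of GABAergic-like nuclei the replicate block gave exact permutation p = 0.375 for MIA and 0.75 for genotype. With no filter on low counts, 5 members passed for MIA in wild type (0.265% of all genes) and 5 between genotypes after saline (0.27% of all genes) in all nuclei. In GABAergic-like nuclei 3 passed for MIA in wild type (1.65% of all genes). In the main fits 0 passed in these comparisons. Leaving out 1 library at a time, members passed only without wild-type saline replicate 2, in all nuclei as in GABAergic-like nuclei. That fit leaves the ventral-rich library alone in its group. Without both contradicting libraries the Csf1r-null minus wild-type share was -8.65 percentage points. Leaving out 1 library at a time it ranged from -8.22 to 0.0909 percentage points, above 0 without wild-type saline replicate 1. These are plain differences of means over unbalanced libraries, so genotype and treatment are mixed in them. Signs of small log2 fold changes also turned. For MIA in wild type over all nuclei, Lhx6 was at 0.07 without both libraries that went against their labels, and Nxph1 at -0.00 with doublets removed, -0.03 without striatal-like nuclei and -0.09 without sub-clusters 4 to 7. In Csf1r-null, without both such libraries, Gad1 was at 0.05, Gad2 at 0.04, Dlx2 at 0.33 and Nxph1 at 0.12, and Nxph1 was at 0.01 with at least 1000 UMIs a nucleus. In GABAergic-like nuclei of wild type, MGE-like and CGE-like nuclei without wild-type saline replicate 1 gave -0.12 for Gad1, 0.02 for Gad2, 0.05 for Dlx1 and -0.70 for Sst, and with that library -0.25 for Sst. Gad2 was at 0.04 without both contradicting libraries and at 0.00 without striatal-like nuclei. In GABAergic-like nuclei of Csf1r-null, without both, Gad1 was at -0.03, Gad2 at -0.04, Lhx6 at -0.01 and Sox6 at -0.05, and Sox6 was at -0.02 in MGE-like and CGE-like nuclei with or without wild-type saline replicate 1. Leaving out 1 library at a time, the MIA log2 fold change in all nuclei of wild type ranged from -0.83 to 0.07 for Lhx6, -0.22 to 0.23 for Nxph1 and -0.76 to 0.35 for Erbb4. In all nuclei of Csf1r-null it ranged from -0.61 to 0.19 for Gad1, -0.26 to 0.06 for Gad2, -0.52 to 0.35 for Dlx2, -0.30 to 0.44 for Dlx5, -0.07 to 0.32 for Lhx6, -0.09 to 0.22 for Sox6, -0.16 to 0.13 for Nxph1, -0.49 to 0.83 for Sst and -0.48 to 0.06 for Erbb4. In GABAergic-like nuclei of wild type it ranged from -0.12 to 0.50 for Gad1, -0.17 to 0.04 for Gad2, -0.57 to 0.05 for Dlx1, -0.27 to 0.04 for Dlx2 and -0.70 to 1.87 for Sst. In those of Csf1r-null it ranged from -0.43 to 0.36 for Gad1, -0.04 to 0.19 for Gad2, -0.22 to 0.11 for Dlx1, -0.26 to 0.46 for Dlx2, -0.01 to 0.54 for Lhx6, -0.13 to 0.18 for Sox6, -0.55 to 1.01 for Sst and -0.29 to 0.14 for Erbb4. The cause was not tested. With 2 libraries a group, differences under 4-fold were often below what the test recovered on simulated counts. In the real counts larger ones could be missed too: Dlx1, 4.36-fold lower after MIA in all nuclei of wild type, did not pass.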
